A study of Mus musculus with 12 samples.

Results

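Chemokines and their receptors were described in mouse femur, as 55 genes of the 19510 gene symbols listed. The members were every symbol beginning Ccl, Cxcl, Ccr or Cxcr followed by a number, together with Cx3cl1, Cx3cr1, Xcl1 and Xcr1. They comprised 35 ligands and 20 receptors. Of the ligands, 20 were CC ligands and 13 were CXC ligands. Of the receptors, 11 were CC receptors and 7 were CXC receptors.

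Chemokines are small secreted proteins that guide the movement of cells, and they are divided into CC, CXC, CX3C and C types by the spacing of their first cysteines. They act through G protein-coupled receptors on the cells that move, while atypical receptors bind and remove them without the usual signal. In bone marrow, Cxcl12 made by stromal cells holds Cxcr4-bearing blood stem cells and lymphoid precursors in place, Cxcr2 and Ccr2 guide the release of neutrophils and monocytes, and Ccr1 and its ligands act on the precursors of the bone-resorbing osteoclasts.

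RNA was measured by sequencing in 4 groups of 3 libraries each. These were the femur metaphysis, the flared end of the shaft beside the growth plate, of Dlx3Oc-cKO mice and of wild-type (Dlx3+/+) mice, and the femur diaphysis, the middle of the shaft, of the same 2 genotypes. All mice were 5-week-old males on a mixed background. Dlx3 encodes a homeodomain transcription factor, and the Oc in the name of the published line refers to an osteocalcin-Cre transgene, which deletes in osteoblasts and osteocytes. The labels do not spell this out, and they do not say whether the wild-type mice carried Cre. The conditional knockout is called cKO and the wild type WT. The deposited unit was RPKM, reads scaled to the length of the transcript and to the mapped reads of the library, summed here over the transcripts of a symbol. Whether each library stands for a mouse of its own is not stated, and the p-values cover only how far these libraries lie apart.

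Dlx3 itself was at 1.98, 2.80 and 3.24 RPKM in cKO metaphysis and at 8.37, 8.90 and 10.1 RPKM in WT metaphysis (log2 fold change -1.75, SE 0.18; limma adjusted p = 0.00907). In the diaphysis it was at 0.763, 1.55 and 1.17 RPKM in cKO and at 3.22, 7.64 and 13.1 RPKM in WT (-2.52, SE 0.50; adjusted p = 1.00). The 2 genotypes did not overlap in either region, and the two-sided exact permutation p of 0.1 is the smallest that 3 libraries against 3 allow. Estimated depth was 24500000 to 34600000 reads in the metaphysis and 18400000 to 53600000 reads in the diaphysis, where cKO 1 was the shallowest. The metaphysis held markers of many cells, and the summed RPKM of some lists moved with the genotype. Osteoclast markers were 4107 to 4640 in cKO and 2204 to 2775 in WT, and endothelial markers 175 to 180 in cKO and 120 to 123 in WT. B lymphoid markers were 293 to 349 in cKO and 448 to 560 in WT. The sums of neutrophil, monocyte and macrophage, T and NK, reticular stroma and skeletal muscle markers overlapped between genotypes there. In such bulk samples fewer cells of a type and less RNA per cell cannot be told apart.

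Cxcl12 was by far the most abundant ligand RNA among the members. Its mean over the 12 libraries was 275 RPKM, and it made up between 67.3% and 81.6% of the summed RPKM of all 35 ligands in every library. The next member ligands were Ccl6, at a mean of 23.8 RPKM, Cxcl14 at 19.0 RPKM, Ccl9 at 10.6 RPKM and Ccl5 at 5.21 RPKM. The platelet chemokines Ppbp and Pf4, whose names leave them out of the members, were also abundant. Means in metaphysis and diaphysis were 258 and 361 RPKM for Ppbp and 204 and 249 RPKM for Pf4. Those of Cxcl12 were 283 and 266 RPKM. Ccl6 and Ccl9 are CC ligands found in rodents and made largely by myeloid cells, and Ccl5 is a ligand typical of T and NK cells. Among the member receptors, Cxcr4, the signalling receptor of Cxcl12, led with a mean of 84.8 RPKM, between 46.5% and 59.7% of the receptor sum. It was followed by the receptors of the myeloid lineages: Ccr2 of monocytes at 16.5 RPKM, Cxcr2 of neutrophils at 16.2 RPKM and Ccr1 at 15.6 RPKM. Cxcr7, an atypical receptor that removes Cxcl12, had a mean of 8.64 RPKM.

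**Figure D1:**
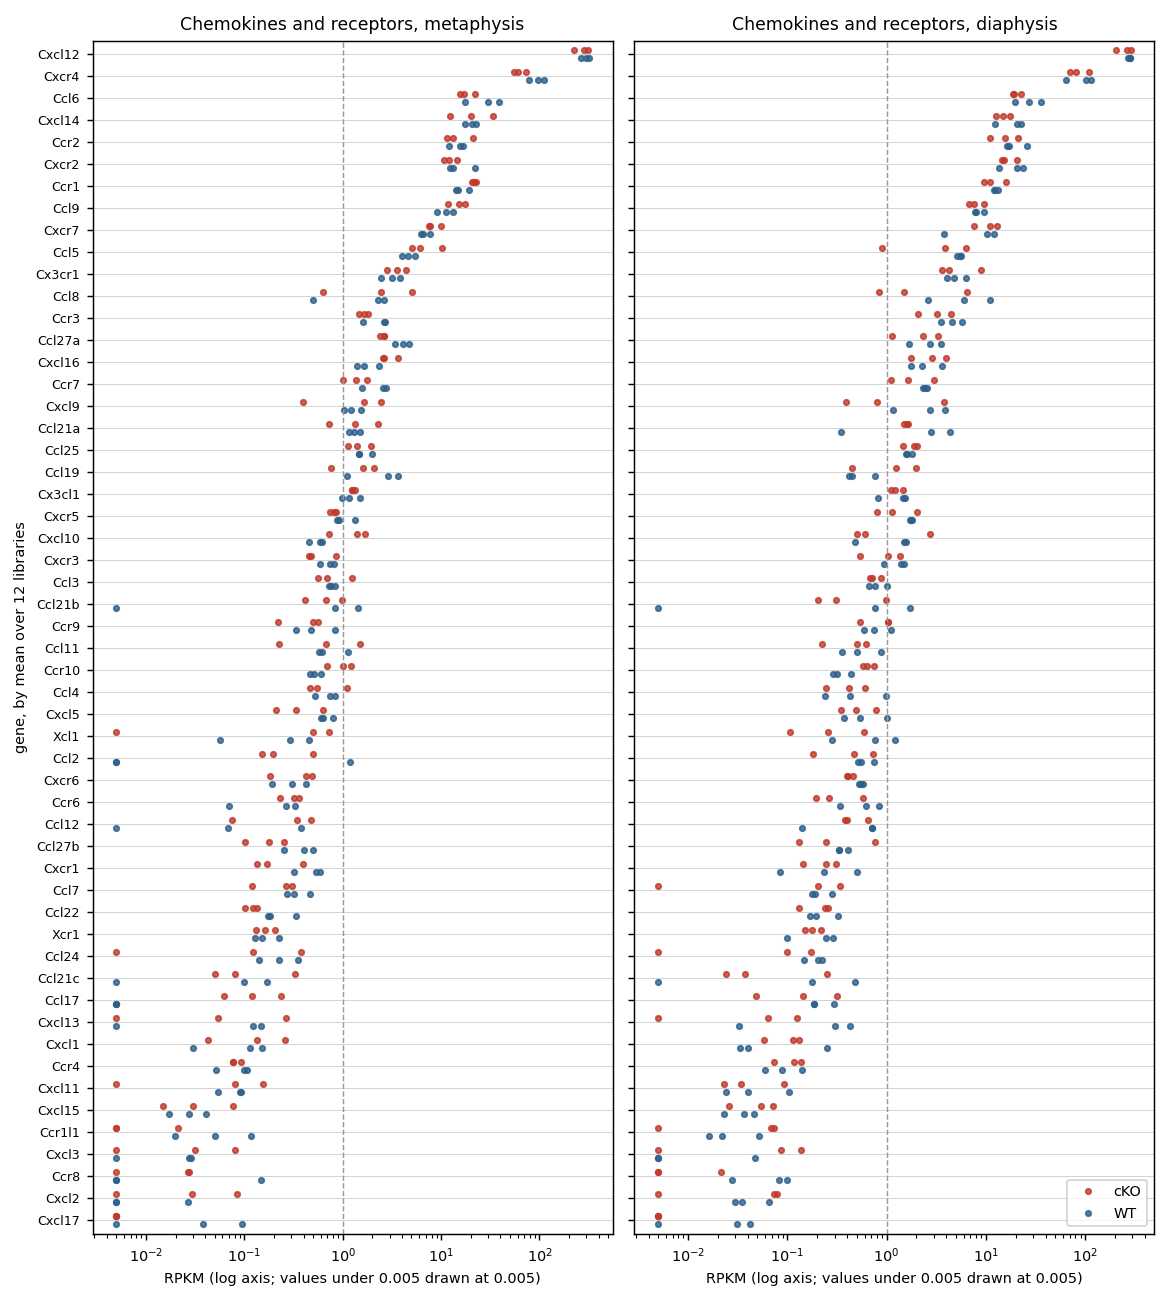
RPKM (log axis) of chemokine and receptor genes in each library, ordered by their mean over 12 libraries, with the metaphysis on the left and the diaphysis on the right; red points are cKO and blue points WT libraries. The dashed line marks 1 RPKM, and values under 0.005 are drawn at 0.005.

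The plot of members by library shows the range of levels. The neutrophil-attracting ligands of Cxcr2 were low throughout: Cxcl1 lay between 0.0301 and 0.258 RPKM, Cxcl2 between 0 and 0.0848 RPKM, Cxcl3 between 0 and 0.139 RPKM and Cxcl5 between 0.210 and 1.01 RPKM. Ccl2, the main ligand of Ccr2, lay between 0 and 1.17 RPKM. A count of 10 reads on a transcript of 1 kb was worth 0.187 to 0.543 RPKM, so most of these values rest on few reads. The number of members at or above 1 RPKM was 18 to 26 in a library.

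The genotypes were compared in each region by limma on log2(RPKM + 0.1) over every gene that reached 1 RPKM in 3 or more of the 6 libraries, a filter that takes no account of genotype. It left 22 members in the metaphysis and 25 in the diaphysis, with 21 in both, 26 in either and 29 in neither. Fold changes are cKO over WT on this log2 scale, which understates the change of low genes, and a change was called at a Benjamini-Hochberg adjusted p under 0.05 over all genes tested. 

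In the metaphysis, 1 of the 22 tested members was called, the skin-type ligand Ccl27a, which fell in cKO. Over all genes tested there, 11.4% of 12641 were called, 7.51% higher and 3.89% lower in cKO. The libraries of the genotypes did not overlap for 4 of the 22, against 37.1% of all genes tested. For these, cKO was above WT for Ccr1 and Cxcl16 and below it for Ccl27a and Cxcr4. Among members under the filter, cKO was also above WT for Ccl17, Ccr10 and Cxcl10, and below it for Ccl22 and Cxcr5. The median fold change of the 22 members was -0.02, beside -0.04 for all genes, with 10 members above 0 and 12 below. Unadjusted p-values were under 0.05 for 5 members, beside 30.6% of all genes.

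Ccl27a, known as the ligand by which keratinocytes attract Ccr10-bearing T cells to skin, was at 2.66, 2.63 and 2.37 RPKM in cKO metaphysis and at 3.37, 4.67 and 4.06 RPKM in WT metaphysis. Every cKO library was below every WT library. The mean was 2.56 ± 0.157 RPKM in cKO and 4.04 ± 0.651 RPKM in WT (SD, n = 3 each), a log2 fold change of -0.63 with an SE of 0.15 (limma adjusted p = 0.0401). The call did not hold when any 1 of the 6 libraries was left out, where the adjusted p was 0.0583 to 0.124 and the fold change -0.75 to -0.52. In the diaphysis Ccl27a was at 3.33, 2.35 and 1.15 RPKM in cKO and at 1.70, 3.57 and 2.71 RPKM in WT, which overlapped (-0.28, 95% interval -1.27 to 0.72). The 5 skin markers, keratins among them, summed to 0.866 to 1.051 RPKM in cKO metaphysis and to 1.09 to 1.45 RPKM in WT metaphysis. Most of these sums was Krt10, with means of 0.832 RPKM in cKO and 1.01 RPKM in WT. Krt1 and Lor were also lower on average in cKO, and Krt5 and Krt14 higher. None passed the filter in either region. In the diaphysis the skin markers summed to 4.73, 0.961 and 0.638 RPKM in cKO and to 3.29, 1.17 and 0.991 RPKM in WT.

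Ccl27a lies on mouse chromosome 4, at chr4:41716340-41721120 on the minus strand of mm9, and its 3′-most 8 bases overlap the end of Il11ra1, the interleukin 11 receptor gene, on the other strand. The library kit does not mark strand, so reads there cannot be assigned to 1 of these genes. Il11ra1 was at 7.89, 12.4 and 7.02 RPKM in cKO metaphysis and at 11.1, 13.6 and 9.06 RPKM in WT metaphysis, which overlapped (-0.32, SE 0.24; limma adjusted p = 0.391). The RPKM of Ccl27a were spread over 4 listed transcripts, and the one that held 39.6% to 83.3% of the sum in the metaphysis had a fold change of -0.74 on its own (SE 0.32; limma adjusted p = 0.194). The near-identical copy Ccl27b stayed between 0.10 and 0.770 RPKM over all libraries, and reads may be divided between the copies.

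Ccr10, the receptor of Ccl27a, was below the filter in both regions. In the metaphysis it was at 1.22, 1.01 and 0.697 RPKM in cKO and at 0.514, 0.601 and 0.464 RPKM in WT, and in the diaphysis at 0.747, 0.574 and 0.640 RPKM in cKO and at 0.286, 0.439 and 0.315 RPKM in WT. The cKO libraries were above the WT libraries in both regions, as they were for 18.7% of the genes past the filter in the metaphysis and 2.24% in the diaphysis. The share of genes with this order in both regions at once was not counted, nor that of genes under the filter. With the filter lowered to 0.3 RPKM, the fold change was 0.76 in the metaphysis (SE 0.25; limma adjusted p = 0.102) and 0.76 in the diaphysis (SE 0.30; adjusted p = 1.00), past the threshold in neither. The whole of Ccr10 lies within the annotated span of Cntnap1, a gene of nerve sheath contacts on the other strand. Cntnap1 was at 2.50, 2.92 and 2.23 RPKM in cKO metaphysis and at 1.32, 1.18 and 1.28 RPKM in WT metaphysis, a rise of 0.95 (SE 0.17; adjusted p = 0.0181). Reads of the 2 genes cannot be told apart where they overlap, and its part in the values of Ccr10 was not tested.

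**Figure D2:**
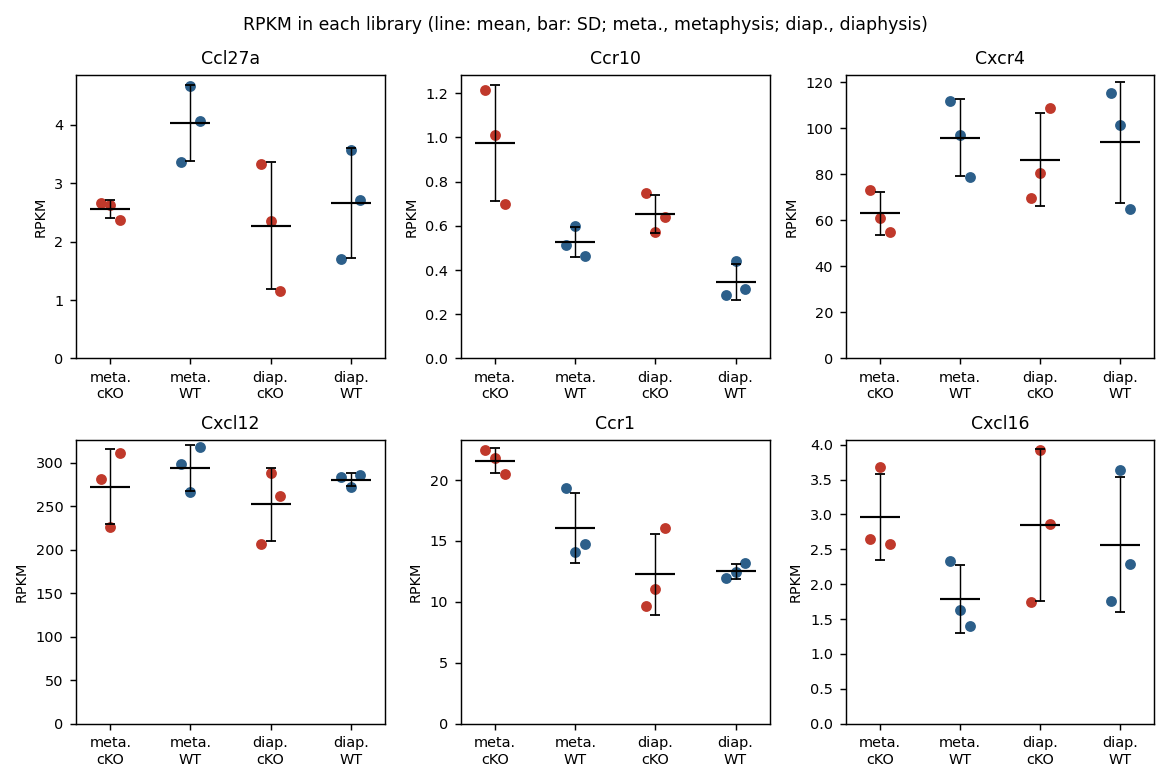
RPKM of Ccl27a, its receptor Ccr10, Cxcr4, Cxcl12, Ccr1 and Cxcl16 in each library, with points for libraries, a line for the mean and bars for the SD (n = 3), cKO in red to the left of WT in blue within metaphysis (meta.) and diaphysis (diap.). In the metaphysis, all panels but that of Cxcl12 show cKO and WT libraries that do not overlap, and in the diaphysis only that of Ccr10 does.

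Cxcr4, which anchors blood stem cells and lymphoid precursors to Cxcl12, was the receptor nearest the threshold. It was at 73.2, 60.9 and 55.0 RPKM in cKO metaphysis and at 112, 97.0 and 78.6 RPKM in WT metaphysis. Every cKO library was below every WT library, yet the change was not called (-0.60, SE 0.16; limma adjusted p = 0.0526). It passed the threshold without cKO 1 (adjusted p = 0.0463) and without WT 3 (adjusted p = 0.0479), and in the other 4 fits with 1 library left out the adjusted p was 0.0922 to 0.144. B lymphoid markers were also lower in cKO metaphysis, with 7 of 12 called lower and none higher. By library their sums were 301, 293 and 349 RPKM in cKO and 448, 458 and 560 RPKM in WT. Within each genotype, Cxcr4 was lowest in the library where these sums were highest. Such an order of 3 libraries was not tested and cannot show a link. Eosinophil, basophil and mast cell markers summed to 213, 133 and 131 RPKM in cKO and to 393, 327 and 263 RPKM in WT. Erythroid and megakaryocyte sums were also lower in every cKO library. The part of these cells in the value of Cxcr4 was not tested. In the diaphysis Cxcr4 was at 69.8, 80.6 and 109 RPKM in cKO and at 115, 101 and 64.7 RPKM in WT, with the genotypes mixed (-0.10, 95% interval -0.72 to 0.51).

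Its ligand Cxcl12 showed no called change. In the metaphysis it was at 281, 225 and 311 RPKM in cKO and at 298, 266 and 318 RPKM in WT, a fold change of -0.12 with a 95% interval of -0.44 to 0.21 (limma adjusted p = 0.596). In the diaphysis it was at 206, 289 and 262 RPKM in cKO and at 283, 272 and 286 RPKM in WT (-0.17, 95% interval -0.59 to 0.26). The genotypes overlapped in both regions. Cxcl12 RNA was divided over 3 listed transcripts, 2 of them at 36.8% to 55.5% of the sum in any library and the other at 6.62% to 9.96%. Tested singly, none of the 3 was called in either region. The scavenger Cxcr7 was at 7.74, 10.1 and 7.46 RPKM in cKO metaphysis and at 7.73, 6.58 and 6.19 RPKM in WT metaphysis (0.29, SE 0.15; adjusted p = 0.227), with 1 WT library inside the cKO range.

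The other abundant member ligands were not called in either region. Ccl6 was at 17.2, 22.0 and 15.6 RPKM in cKO metaphysis and at 38.6, 30.2 and 17.3 RPKM in WT metaphysis, and 1 WT library lay within the cKO range (-0.59, SE 0.28; limma adjusted p = 0.207). With 1 library left out the fold change ran from -0.92 without WT 3 (adjusted p = 0.0466) to -0.34 without WT 1 (adjusted p = 0.447), and no other such fit passed. In the diaphysis Ccl6 was at 19.0, 22.8 and 19.2 RPKM in cKO and at 36.3, 27.2 and 19.6 RPKM in WT (-0.41, SE 0.23), again with 1 WT library within the cKO range. The non-coding gene E230016K23Rik covers Ccl6 on the other strand. Cxcl14, a ligand whose signalling receptor is debated, was at 12.4, 33.8 and 19.9 RPKM in cKO metaphysis and at 22.8, 17.5 and 20.8 RPKM in WT metaphysis (0.01, SE 0.33). In the diaphysis it was at 17.5, 14.9 and 12.6 RPKM in cKO and at 12.3, 22.6 and 20.6 RPKM in WT (-0.26, SE 0.25). For Cxcl14 in both regions the genotypes overlapped.

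Of the myeloid receptors, Ccr2 and Cxcr2 overlapped between genotypes in both regions. Ccr2 was at 21.2, 11.5 and 13.2 RPKM in cKO metaphysis and at 15.5, 16.8 and 11.96 RPKM in WT metaphysis (0.02, SE 0.24), and in the diaphysis at 11.1, 21.3 and 15.8 RPKM in cKO and at 26.0, 17.3 and 16.2 RPKM in WT (-0.32, SE 0.28). Cxcr2 was at 11.9, 14.4 and 10.7 RPKM in cKO metaphysis and at 22.2, 12.4 and 13.1 RPKM in WT metaphysis (-0.32, SE 0.23), and in the diaphysis at 14.7, 15.3 and 20.8 RPKM in cKO and at 24.0, 20.9 and 13.7 RPKM in WT (-0.18, SE 0.25). Neither receptor was called in either region.

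Ccr1, a receptor of monocytes and osteoclast precursors, is named with Cxcl16 and the ligand Ccl9 after their values were seen. Ccr1 was at 22.5, 21.8 and 20.5 RPKM in cKO metaphysis and at 19.4, 14.1 and 14.7 RPKM in WT metaphysis, without overlap, and was not called (0.44, SE 0.13; limma adjusted p = 0.0728). Its ligand Ccl9 was at 17.5, 15.0 and 11.7 RPKM in cKO metaphysis and at 13.3, 11.3 and 9.07 RPKM in WT metaphysis, which overlapped (0.39, SE 0.19; adjusted p = 0.204). Of the 8 osteoclast markers tested in the metaphysis, 6 were higher in cKO, and their part in these values was not tested. Cxcl16, a membrane-bound ligand of macrophages and endothelium that pairs with Cxcr6, was at 2.65, 3.68 and 2.58 RPKM in cKO metaphysis and at 2.33, 1.63 and 1.40 RPKM in WT metaphysis, without overlap (0.71, SE 0.23; adjusted p = 0.0872). That was the highest fold change among the 22 members, and part of the gene overlaps Zmynd15 on the other strand. In the diaphysis Ccr1 was at 9.69, 11.1 and 16.03 RPKM in cKO and at 11.96, 12.4 and 13.2 RPKM in WT, and Cxcl16 at 1.75, 3.93 and 2.86 RPKM in cKO and at 1.77, 3.64 and 2.29 RPKM in WT. Both overlapped there.

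The fractalkine pair, the membrane-bound ligand Cx3cl1 and its monocyte receptor Cx3cr1, was not called in either region. Cx3cl1 was at 1.25, 1.32 and 1.24 RPKM in cKO metaphysis and at 1.15, 0.980 and 1.504 RPKM in WT metaphysis, and at 1.21, 1.47 and 1.12 RPKM in cKO diaphysis and 0.821, 1.55 and 1.47 RPKM in WT diaphysis. Cx3cr1 was at 4.37, 2.81 and 3.55 RPKM in cKO metaphysis and at 2.45, 3.79 and 3.18 RPKM in WT metaphysis, and at 3.62, 8.85 and 4.24 RPKM in cKO diaphysis and 4.83, 6.36 and 4.05 RPKM in WT diaphysis. Their fold changes lay between 0.03 and 0.18, with 95% intervals that reached -0.77 and 0.86 at the widest, and the genotypes overlapped in all 4 cases. Xcl1, a ligand of activated T and NK cells, and Xcr1, its receptor on cross-presenting dendritic cells, were below the filter. Xcl1 was at 0, 0.731 and 0.504 RPKM in cKO metaphysis and at 0.0570, 0.459 and 0.290 RPKM in WT metaphysis, and at 0.107, 0.591 and 0.257 RPKM in cKO diaphysis and 1.21, 0.283 and 0.764 RPKM in WT diaphysis. Xcr1 was at 0.206, 0.162 and 0.133 RPKM in cKO metaphysis and at 0.129, 0.227 and 0.151 RPKM in WT metaphysis, and at 0.221, 0.179 and 0.152 RPKM in cKO diaphysis and 0.248, 0.291 and 0.1001 RPKM in WT diaphysis.

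The lymphoid-homing receptor Ccr7, chosen after its values were seen, was at 1.00, 1.75 and 1.36 RPKM in cKO metaphysis and at 1.58, 2.59 and 2.73 RPKM in WT metaphysis. The fold change of -0.70 (SE 0.28) was the lowest of the 22 members and was not called (limma adjusted p = 0.143). Its ligand Ccl19 was at 2.07, 0.765 and 1.63 RPKM in cKO metaphysis and at 3.65, 2.92 and 1.11 RPKM in WT metaphysis (-0.69, SE 0.50), sums over 2 listed loci of its transcript. Both overlapped between genotypes. The copies Ccl21a, Ccl21b and Ccl21c are near-identical, and reads may be divided among them. Ccl21a showed a fold change of 0.00 in the metaphysis (SE 0.37), and in both regions it passed the filter only because its transcript is listed at 2 loci and summed.

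Ccl25, Ccr9, Cxcr5 and Cxcr3, which mostly serve lymphocytes, lay between 0.218 and 2.02 RPKM over all libraries. Ccl25, which draws T cell precursors to the thymus through Ccr9, was between 1.13 and 1.94 RPKM in cKO metaphysis and between 1.45 and 2.01 RPKM in WT metaphysis (-0.15, 95% interval -0.73 to 0.43). Ccr9, the B cell receptor Cxcr5 and Cxcr3 passed the filter in the diaphysis only, with fold changes of 0.08, -0.48 and -0.42 there. None of these was called in either region, and their libraries overlapped between genotypes wherever they were tested. Under the filter in the metaphysis, Cxcr5 was at 0.741, 0.854 and 0.823 RPKM in cKO and at 0.918, 0.869 and 1.35 RPKM in WT. Its cKO libraries lay below its WT libraries, as did those of 18.4% of the genes past the filter. With the filter at 0.3 RPKM its fold change was -0.32, with an SE of 0.22 (limma adjusted p = 0.384).

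The 29 members tested in neither region had 12-library means between 0.0172 RPKM, for the mucosal ligand Cxcl17, and 0.794 RPKM, for Ccl3. Cxcl17 was listed at 0 in 8 libraries, and Ccr8 and Cxcl3 in 5 each. The homing ligands Ccl17 and Ccl22 of the receptor Ccr4 lay between 0 and 0.313 RPKM and between 0.101 and 0.334 RPKM, and Ccr4 between 0.0520 and 0.139 RPKM. Cxcl13, which organises B cell follicles, lay between 0 and 0.428 RPKM, and Cxcr6, the receptor of Cxcl16, between 0.184 and 0.581 RPKM.

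In the diaphysis, 0 of the 25 tested members were called by limma, as were 0.0% of 12540 genes. At an unadjusted p under 0.05 the count was 0 members and 86 genes (0.686%). The libraries of the genotypes did not overlap for 0 of the 25 tested members. Beside this, 3.03% of genes tested did not overlap, 2.24% with cKO above WT and 0.789% with cKO below. Among members under the filter, cKO lay above WT for Ccr10 and below it for Ccr8 and Cxcr6. Fold changes were below 0 for 19 members and above 0 for 6, with a median of -0.18, beside a median of 0.00 for all genes, of which 50.7% were above 0. The shallowest library, cKO 1, was the lowest of the 6 for 15 members, as it was for 39.5% of all genes. Without it, 15 members were below 0 and 10 above, with a median of -0.07 for the members and 0.09 for all genes. In the other fits with 1 library left out, the members' median ran from -0.35 without WT 3, with 20 of 25 below 0, and -0.34 without cKO 2, with 20 of 23 below 0, to -0.11 without WT 2.

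**Figure D3:**
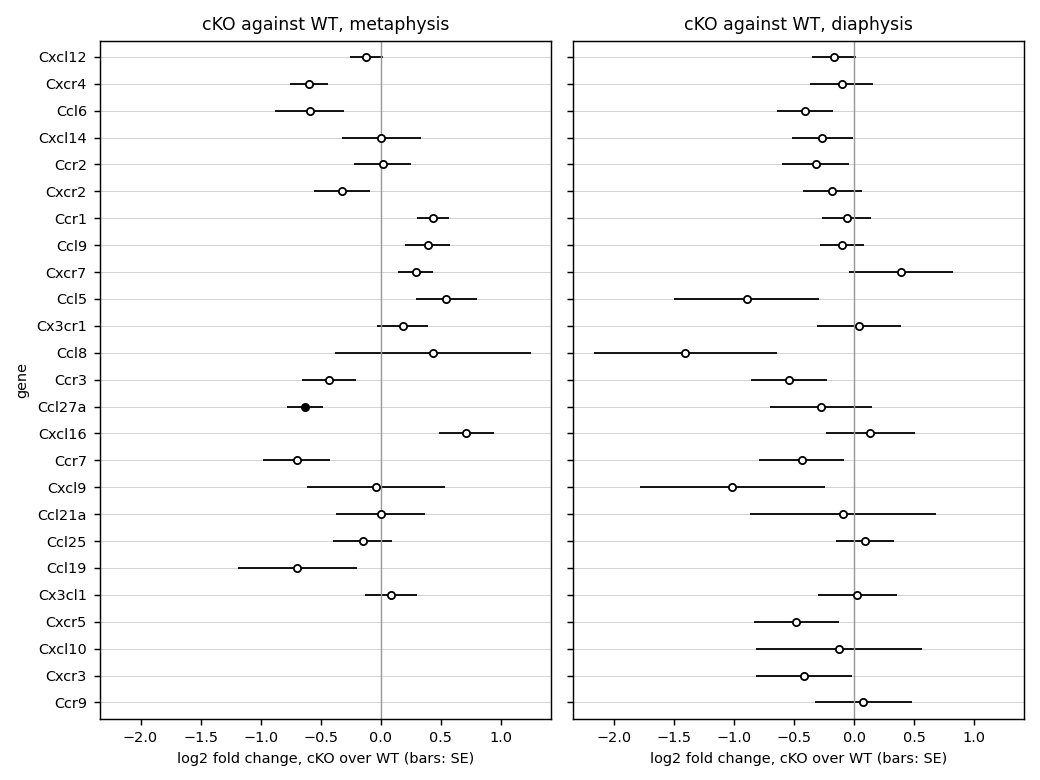
Log2 fold change, cKO over WT, of members tested in either region, with SE bars from limma, metaphysis left and diaphysis right; a filled point marks the 1 call, Ccl27a in the metaphysis, and a missing point a member under the filter there. The points in the diaphysis lie mostly left of 0, and those in the metaphysis lie on both sides.

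The plot of fold changes shows the widest errors in the diaphysis for Ccl8, Cxcl9, Ccl21a, Cxcl10 and Ccl5. Ccl5 was at 0.910, 6.24 and 3.88 RPKM in cKO diaphysis and at 5.57, 5.09 and 5.48 RPKM in WT diaphysis (-0.90, 95% interval -2.30 to 0.51). In the metaphysis it was at 6.08, 10.2 and 5.07 RPKM in cKO and at 4.58, 4.01 and 5.41 RPKM in WT (0.54, 95% interval -0.05 to 1.14). Ccl5 therefore had opposite signs in the 2 regions, and the difference between regions, 1.44 with an SE of 0.73, was not called (limma adjusted p = 0.908).

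A test of whether the effect of the genotype differed between regions, in 1 fit of all 12 libraries, called 0 of 21 members and 0.0% of 12321 genes. At an unadjusted p under 0.05 it gave 0 members and 495 genes (4.02%). The smallest p among members was that of Ccr1, with a difference, metaphysis minus diaphysis, of 0.50 (SE 0.25; limma adjusted p = 0.908). That of Ccl27a was -0.35 (SE 0.49; adjusted p = 0.912), so its call in 1 region does not show that the regions differ.

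Cxcl9 and Cxcl10, ligands of Cxcr3 on activated T cells that are induced by interferon gamma, and Ccl8, a CC ligand of macrophages, are shown because their values varied together across diaphysis libraries, and they were chosen after those were seen. In the diaphysis Cxcl9 was at 0.392, 3.82 and 0.811 RPKM in cKO and at 2.73, 3.90 and 1.17 RPKM in WT. Cxcl10 was at 0.505, 2.72 and 0.606 RPKM in cKO and at 1.499, 1.58 and 0.481 RPKM in WT, and Ccl8 at 0.841, 6.54 and 1.51 RPKM in cKO and at 6.01, 11.1 and 2.63 RPKM in WT. The 3 highest libraries were the same for all 3 genes: cKO 2, WT 1 and WT 2. In all, 9 of the 25 members had these as their 3 highest libraries, Ccl6, Ccr2, Ccr7, Cx3cr1 and Cxcr3 among them, as did 7.16% of all genes tested. The 9 include Cxcl9, Cxcl10 and Ccl8 themselves, whose values set these libraries, so the count and this share cannot be compared as a test. T and NK lymphoid markers summed to 61.0, 68.2 and 56.0 RPKM in cKO diaphysis and to 73.9, 66.8 and 47.1 RPKM in WT diaphysis, and B lymphoid markers to 295, 456 and 319 RPKM in cKO diaphysis and to 419, 396 and 307 RPKM in WT diaphysis. Both lists were highest in the same 3 libraries. Monocyte, macrophage and dendritic markers summed to 340, 640 and 599 RPKM in cKO diaphysis and to 573, 661 and 485 RPKM in WT diaphysis. Neutrophil markers summed to 9474, 10917 and 12269 RPKM in cKO diaphysis and to 14760, 12779 and 9179 RPKM in WT diaphysis. The monocyte and neutrophil lists were not highest in the same 3 libraries. The part of any of these lists in these values was not tested.

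In the metaphysis the trio was less alike. Cxcl9 was at 0.392, 2.48 and 1.66 RPKM in cKO and at 1.23, 1.52 and 1.03 RPKM in WT, and Ccl8 at 0.632, 5.03 and 2.48 RPKM in cKO and at 2.29, 2.65 and 0.498 RPKM in WT. Both were highest in cKO 2, cKO 3 and WT 2, as were 2.65% of all genes. Cxcl10 was under the filter there, at 0.721, 1.41 and 1.67 RPKM in cKO and at 0.457, 0.623 and 0.582 RPKM in WT. Its cKO libraries lay above its WT libraries, as did those of 18.7% of the genes past the filter. With the filter at 0.3 RPKM its fold change was 1.00 (SE 0.32; limma adjusted p = 0.0896). The whole of Cxcl10 lies within the annotated span of Art3 on the other strand, which was at 3.61, 10.5 and 3.62 RPKM in cKO metaphysis and at 5.62, 8.47 and 5.40 RPKM in WT metaphysis and overlapped between genotypes.

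**Figure D4:**
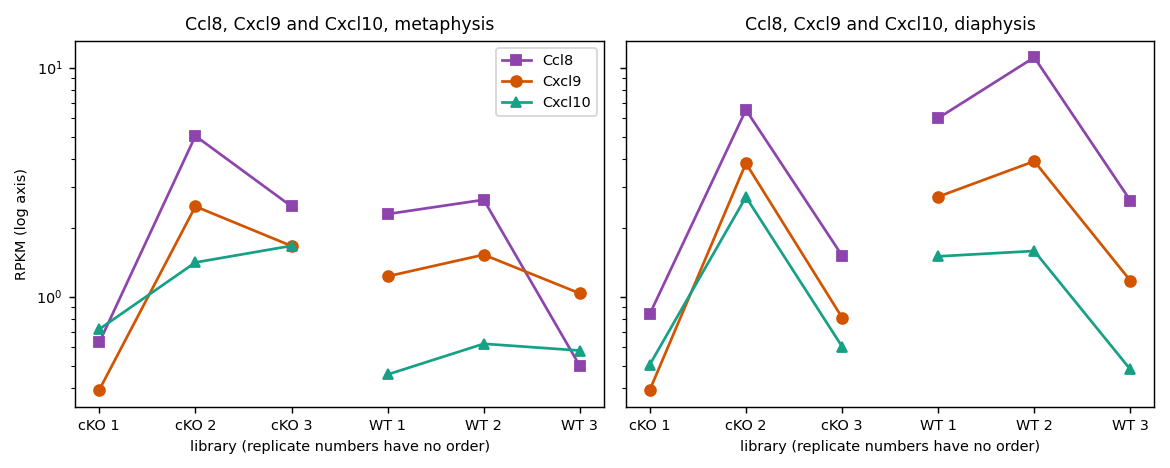
RPKM (log axis) of Ccl8, Cxcl9 and Cxcl10 in each library, cKO left of WT, with the metaphysis on the left and the diaphysis on the right; lines only join the libraries of a group, whose numbers have no order. In the diaphysis all 3 genes are highest in cKO 2, WT 1 and WT 2.

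The promoters of Cxcl9 and Cxcl10, neighbours on chromosome 5, are printed because these genes varied together across diaphysis libraries. They run from 250 bases before to 50 bases after the gene start, 5′ to 3′ on the minus strand, as given by RefSeq on GRCm38.p6 at chr5:92328030-92328329 for Cxcl9 and chr5:92348840-92349139 for Cxcl10. Capitals mark matches on either strand to 2 motifs. The first is GAAA, 2 bases of any kind and GAAA again, the core of the element bound by interferon-activated factors. The second is GGGA, 2 bases of any kind and TTCC, 1 form of the NF-kappaB element. Other forms of these elements were not searched for and are not marked.
Cxcl9: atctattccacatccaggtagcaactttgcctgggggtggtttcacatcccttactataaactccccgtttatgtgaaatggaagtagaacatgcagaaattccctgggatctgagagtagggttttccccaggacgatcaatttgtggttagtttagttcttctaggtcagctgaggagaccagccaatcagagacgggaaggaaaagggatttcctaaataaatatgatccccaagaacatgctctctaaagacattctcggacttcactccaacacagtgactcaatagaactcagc
Cxcl10: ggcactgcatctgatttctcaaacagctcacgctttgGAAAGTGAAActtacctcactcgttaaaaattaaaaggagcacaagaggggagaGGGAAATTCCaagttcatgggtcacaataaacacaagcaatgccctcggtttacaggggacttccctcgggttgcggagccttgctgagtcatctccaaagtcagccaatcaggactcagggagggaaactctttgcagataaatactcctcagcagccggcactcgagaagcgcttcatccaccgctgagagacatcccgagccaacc
Both motifs were found in the Cxcl10 promoter, at -213 and -159 bases from the start, and neither in that of Cxcl9. Over 32851 promoters of the same length, 3.44% held the first motif and 1.47% the second. The motifs do not overlap, and a match is a description of letters and not a site of binding.

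Genes that work with chemokines but are named otherwise were set beside the members. Of 38 tested in the metaphysis, 3 were higher and 3 lower in cKO, beside 7.51% higher and 3.89% lower among all genes. The platelet chemokine Ppbp fell (mean 197 RPKM in cKO and 319 RPKM in WT; -0.69, SE 0.12; limma adjusted p = 0.0171), as did Darc, the atypical receptor of red cells and venules (6.98 RPKM in cKO and 12.8 RPKM in WT; -0.89, SE 0.18; adjusted p = 0.0251). The other platelet chemokine, Pf4, was at a mean of 157 RPKM in cKO and 251 RPKM in WT and was not called (-0.70, SE 0.20; adjusted p = 0.0666). Ccrl1, an atypical receptor that removes Ccl19, Ccl21 and Ccl25, rose (21.5 RPKM in cKO and 14.7 RPKM in WT; 0.54, SE 0.11; adjusted p = 0.0280). Megakaryocyte and platelet markers, with Ppbp and Pf4 taken out of the list, summed to 67.4 to 92.7 RPKM in cKO metaphysis and 99.7 to 137 RPKM in WT metaphysis, and erythroid markers to 34464 to 44425 RPKM in cKO and 46043 to 52294 RPKM in WT; their part in these values was not tested.

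Of 5 proteases that cut Cxcl12, 3 were called in the metaphysis, in both directions, where 11.4% of all genes were. Mmp9, the gelatinase of osteoclasts and neutrophils, rose (mean 705 RPKM in cKO and 374 RPKM in WT; 0.94, SE 0.18; limma adjusted p = 0.0238), and so did Mmp2, a gelatinase of stromal cells (146 RPKM in cKO and 112 RPKM in WT; 0.39, SE 0.08; adjusted p = 0.0299). Dpp4, the surface peptidase that trims the amino end of Cxcl12, fell (4.75 RPKM in cKO and 7.77 RPKM in WT; -0.70, SE 0.16; adjusted p = 0.0356). Of the 24 signal transducers tested downstream of chemokine receptors, G proteins, kinases, Rac activators and arrestins, 0 were called there. In the diaphysis 0 of 36 such genes were called.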

How the data were processed

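Femur RNA of 12 libraries was measured, prepared, per the labels' protocols, with a TruSeq RNA kit that keeps no strand information. Per the submitters' processing notes, CASAVA 1.8.2, TopHat 1.3.2, Bowtie 0.12.7.0 and Partek 6.6 were used with the mm9 build. Their roles and settings are not stated. The authors deposited RPKM per RefSeq transcript, 1 table per region, and these normalized values were used as deposited. Raw counts were not used here: the low values stepped towards whole reads, but only 71.45% to 76.32% lay within 0.1 of a whole number, so counts were not recovered and no count test was run. Depth was estimated from those steps, and 10 reads on 1 kb were worth 0.187 to 0.543 RPKM.

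Transcripts were summed per symbol, including rows of 1 accession listed at several loci (174 accessions in the metaphysis and 192 in the diaphysis). The values were tested as log2(RPKM + 0.1) with limma 3.58.1 (mean-variance trend, R 4.3.3) on genes that reached 1 RPKM in 3 or more of a region's 6 libraries, with Benjamini-Hochberg adjustment over all of them. Whether the regions differ was tested by a contrast over all 12 libraries. The fit was also run on simulated data with independent genes and shuffled gene spreads, which does not test the calls reported here. Replicates are numbered in record order, which pairs nothing. Alternatives were other pseudocounts, filters and scalings, a fit without the trend, a joint fit, single transcripts, each accession once (added after seeing the data) and each library left out in turn. Positions are from GENCODE on mm9.

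The members, lists and tests were chosen with earlier results of these data known. Values in every library are given for called members and their paired ligand or receptor, the 6 members with the highest mean, and Cx3cl1, Cx3cr1, Xcl1 and Xcr1; other members named with values were chosen after these were seen. The marker lists were summed by library, and the result of each is in the text or in the closing section.
 1 member is not reported here, though the counts of members include it.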

Additional observations from a re-analysis of the deposited data

How the results depend on the processing

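The count of members called in the metaphysis, 1 as reported, was 0 without a filter on low values, 0 after scaling to the non-globin sum and 0 in the fit of all 12 libraries, and 0 to 2 when 1 library was left out: Cxcr4 alone without cKO 1, and Ccl6 and Cxcr4 without WT 3. Ccl27a had an adjusted p by limma of 0.0789, 0.0523 and 0.372 under the first 3 of these. In the fit of all 12 libraries Dlx3 in the metaphysis was still at -1.75 but not past the threshold (adjusted p = 0.210). Over all genes, the metaphysis gave 1441 calls as reported, 789 without a filter, 959 with transcripts as features, 7 in the joint fit and 105 to 1418 with 1 library left out. The diaphysis gave 0 calls in every setting, and the difference between regions 0, except 2 without a filter and 247 without diaphysis WT 1, with 0 members in each. The cause was not tested.

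Leaving out 1 library turned the sign of small, uncalled fold changes. In the metaphysis the ranges were -0.22 to 0.0103 for Cxcl12, -0.36 to 0.36 for Cxcl14, -0.24 to 0.19 for Ccr2 and -0.0471 to 0.24 for Cx3cl1. In the diaphysis they were -0.60 to 0.13 for Ccl27a, -0.35 to 0.0673 for Cxcr4, -0.27 to 0.0901 for Ccr1, -0.23 to 0.00499 for Ccl9, -0.24 to 0.18 for Cx3cl1, -0.34 to 0.29 for Cx3cr1, -0.12 to 0.71 for Cxcr7 and -0.13 to 0.44 for Cxcl16. Of 278 other values of single members, 274 kept their direction and side of the threshold, and 4, all of Ccl27a in the metaphysis, kept their direction only. Scaling by the median of ratios or to the non-globin sum turned the sign of Ccl21a, and the second also that of Cxcl9, in the metaphysis. No paired analysis was possible because the labels carry no replicate numbers shared between groups.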

Other observations

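Other cell types whose markers bear chemokine receptors were summed in the same libraries. In the metaphysis, eosinophil, basophil and mast cell markers summed to 131 to 213 RPKM in cKO and 263 to 393 RPKM in WT, with 3 of 7 tested markers lower in cKO by limma, while Ccr3, the eotaxin receptor of eosinophils, was at 1.82, 1.48 and 1.64 RPKM in cKO and 1.61, 2.66 and 2.64 RPKM in WT and was not called. Neutrophil markers summed to 8906 to 12477 RPKM in cKO and 9139 to 15348 RPKM in WT, monocyte and macrophage markers to 487 to 545 RPKM in cKO and 480 to 510 RPKM in WT, and T and NK markers to 51.6 to 70.9 RPKM in cKO and 62.4 to 75.0 RPKM in WT, so these 3 sums overlapped. Within the monocyte and macrophage list, 3 of 15 markers were higher in cKO by limma, Csf1r (0.65), Cd68 (0.85) and Itgax (0.66), and Vcam1 was lower (-0.60). Of the 13 neutrophil markers 1 was higher, Mmp9. Chondrocyte markers summed to 1259 to 2012 RPKM in cKO and 614 to 829 RPKM in WT, with 6 of 8 tested markers higher in cKO. Osteoblast and osteocyte markers summed to 21235.8 to 22422.5 RPKM in cKO and 14044.4 to 18464.6 RPKM in WT, with 4 of 12 higher in cKO. Skeletal muscle markers had 1 of 8 lower in cKO. Reticular stroma and adipocyte markers, with Cxcl12 taken out of the list, summed to 164 to 211 RPKM in cKO and 157 to 301 RPKM in WT, which overlapped, and 1 of them, Foxc1, was higher in cKO. In the diaphysis no tested marker of any list was called by limma.

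Of the 55 members, 13 lie on chromosome 11, which also holds Dlx3, and 12 on chromosome 9 and 10 on chromosome 5. Of those described with values, the nearest to Dlx3 are Ccr10, whose start is 6.05 Mb from that of Dlx3, and Ccr7, at 4.02 Mb.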
